A study of Mus musculus with 8 samples.

Results

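The complement components and regulators described here are 9 genes: the C1q chains C1qa, C1qb and C1qc, the components C3 and C4b, the C1 inhibitor Serping1, the anaphylatoxin receptors C3ar1 and C5ar1, and the membrane regulator Cd59a. They were matched on the gene name in the files, on an array whose probes were assigned 24129 gene symbols. They were represented by 11 of the 55681 non-control probes, and 10 of those 11 probes, covering 8 genes, passed the scanner's criterion of lying well above background on 4 or more of the 8 arrays and entered the test. RNA of hippocampi was hybridised to one-colour Agilent arrays. The 4 anti-CD4 samples came from mice treated with antibodies against CD4, a coreceptor on helper T cells, and the 4 control samples came from mice treated with control antibodies. All samples were from female C57BL6/J mice aged 8 weeks that had been housed for 4 weeks in an enriched environment. Whether each sample was a separate animal is not stated, so p-values cover only sample-to-sample spread, which could be technical.

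Complement is a protein cascade that marks and clears cells, debris and synapses. C1q, built from the A, B and C chains, binds a target and activates the proteases C1r and C1s, which cleave C4 and C2. The resulting enzyme cleaves C3, whose larger fragment coats the target and whose smaller fragment signals through C3ar1. C5 is cleaved next, its small fragment signals through C5ar1, and its large fragment starts the membrane attack complex. Serping1 inhibits C1r and C1s, and Cd59a blocks the last step of pore formation. In the mouse brain, C1q is made mainly by microglia, C4b largely by astrocytes and oligodendrocyte lineage cells, and microglial C1q and C3 take part in synapse removal during development.

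The probes decide what each value refers to, so the central bases 16 to 45 of the 60-base probes are given, 5′ to 3′, for the genes with more than 1 probe, for C4b and for Cd59a. Positions are those of the files, on mm9, and exon and UTR annotation of that build was not used here.
C3, 10-spot probe: ggtggtttatggttgtcccaactgactaca
C3, single-spot probe: agtacctcatgtggggcctctcctctgacc
Serping1, split probe: gacatgctgtcagtcatggagaaactggaa
Serping1, contiguous probe: acccaagcttcagctcctccggttatttcc
C4b: ggctctgctctacagggtaaataaaagaaa
Cd59a: aggattctctttaccactctgacacgctca
The 2 C3 probes lie at chr17:57343416-57343475 and chr17:57343678-57343737, both on the minus strand. The first of them was spotted 10 times per array, and the other once. The Serping1 probes lie on the minus strand of chromosome 2. The split probe has its 60 bases spread over an interval of 1507 bases, chr2:84605968-84607474, and the contiguous probe lies at chr2:84605663-84605722. The C4b probe, at chr17:34865328-34865387 on the minus strand, lists RefSeq transcripts of both C4a and C4b, which are near-identical neighbours, so its signal cannot be assigned to C4b alone. The Cd59a probe lies at chr2:103954688-103954747 on the plus strand.

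The C1qa, C1qc and C1qb probes lie side by side on the minus strand of chromosome 4, at chr4:136452409-136452468, chr4:136445766-136445825 and chr4:136436578-136436637. The 250 bases upstream of the gene start are shown for 2 of the chains, because the chains share a locus and had similar values across arrays. The capitals mark GAGGAA, or TTCCTC on the other strand, the core of the site bound by PU.1, a transcription factor of macrophages and microglia. The sequences are RefSeq's on GRCm38.p6, on the minus strand at chr4:136886201-136886450 for C1qb and chr4:136892915-136893164 for C1qc.
C1qb: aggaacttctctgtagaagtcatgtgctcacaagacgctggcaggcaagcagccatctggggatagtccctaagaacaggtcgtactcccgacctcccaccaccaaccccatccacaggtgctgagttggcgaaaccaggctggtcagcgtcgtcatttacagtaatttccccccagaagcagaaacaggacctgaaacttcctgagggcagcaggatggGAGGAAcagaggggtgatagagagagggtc
C1qc: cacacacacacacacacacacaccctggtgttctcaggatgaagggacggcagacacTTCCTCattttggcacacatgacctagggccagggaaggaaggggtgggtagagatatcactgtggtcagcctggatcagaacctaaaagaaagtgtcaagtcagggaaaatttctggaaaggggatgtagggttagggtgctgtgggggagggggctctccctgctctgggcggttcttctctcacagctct
Promoter entries matched 6 of the 9 members, C1qb, C1qc, C3, C3ar1, C5ar1 and Cd59a. Counted from the gene start, the letters began at position -30 for C1qb, -193 for C1qc and -62 for Cd59a, and were not in the windows of C3, C3ar1 and C5ar1. Of 32851 windows of the same length, 23.3% held them on either strand. A match describes the letters and not a bound site.

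All 8 arrays lay on 1 slide, the anti-CD4 arrays in row 1 and the control arrays in row 2, so slide row and treatment cannot be told apart. On each array 51.1% to 54.3% of probes were well above background, and the number of arrays limits the precision. The median coefficient of variation of repeated spots was 4.94% to 5.20% on the anti-CD4 arrays and 3.62% to 4.15% on the control arrays. Outlier-marked spots numbered 127 to 179 on the anti-CD4 arrays and 98 to 124 on the control arrays. Neither range overlapped between the groups, and their part in the results was not tested. Of 2 Cd4 probes, 1 was well above background on 0 of 8 arrays. The other had log2 signals of 1.99, 2.23, 1.95 and 2.02 on the anti-CD4 arrays and 2.19, 1.85, 2.10 and 1.97 on the control arrays. The groups overlapped, with a difference of 0.02 (limma adjusted p = 0.948), and depletion of T lymphocytes was not measured in these files.

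None of the 10 tested probes of the complement genes differed between anti-CD4 and control arrays beyond the spread between arrays. Their differences, as log2 values of anti-CD4 minus control, lay between 0.01 and 0.26, with a median of 0.12, against a median of 0.0046 over all 29406 tested probes. At an adjusted p under 0.05 limma called 0 of the 10 probes, and 0% of all tested probes. At an unadjusted p under 0.05 it also called 0 of the 10, where 5.98% of all probes were higher and 6.99% were lower. The groups overlapped for all 10 probes, while 3.77% of all tested probes had every anti-CD4 value above every control value and 4.43% the reverse. All 10 differences were above 0, as were 51.1% of those over all probes. The 10 probes come from 8 genes on the same 8 arrays and are not independent, and with the authors' deposited log2 values 8 of the 10 were above 0. These are bulk tissue levels, in which fewer cells of a type and less RNA per cell cannot be told apart. Levels are log2 of the processed signal minus the array's 75th percentile of all probes, and the levels of different probes are not compared.

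**Figure D1:**
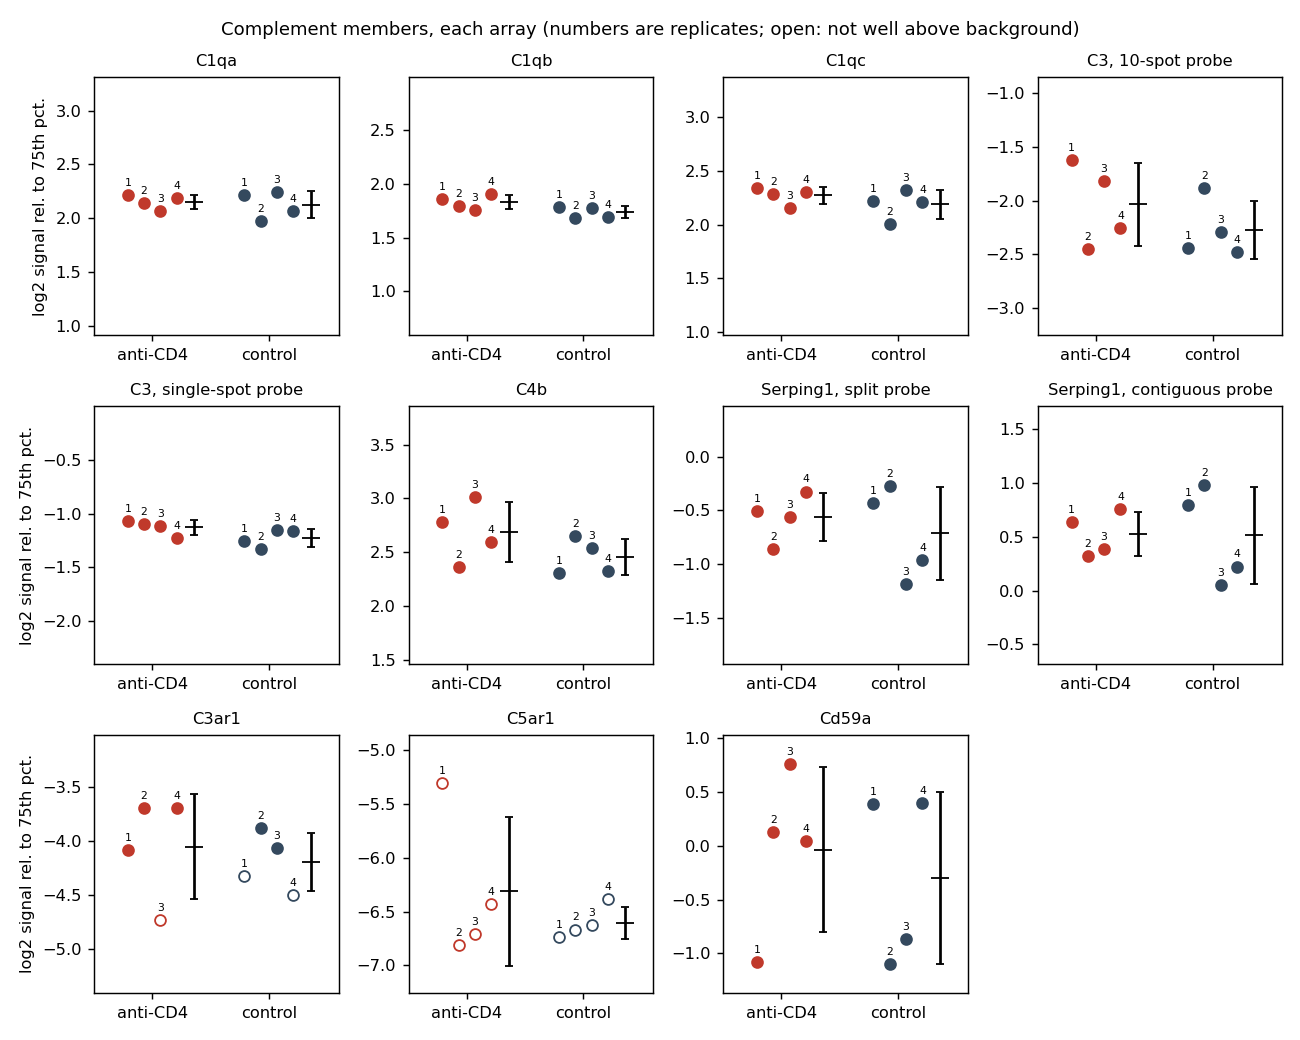
Each panel shows 1 probe of a complement gene, with the log2 signal relative to the array's 75th percentile on the y axis (every panel spans the same number of log2 units) for 4 anti-CD4 and 4 control arrays, numbered by replicate, and the mean ± SD beside them. Open symbols were not well above background. The groups overlap in every panel, and Cd59a has the widest spread.

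C1qa, C1qb and C1qc, the 3 chains of the recognition molecule, were steady. The C1qa signal was 2.21, 2.14, 2.06 and 2.18 on the anti-CD4 arrays and 2.21, 1.98, 2.25 and 2.07 on the control arrays. The lowest and highest values were both on control arrays, so the anti-CD4 values lay within the control range. C1qb had 1.86, 1.80, 1.76 and 1.90 on the anti-CD4 arrays and 1.79, 1.68, 1.78 and 1.69 on the control arrays. Here 3 of the 4 anti-CD4 arrays exceeded all control arrays, and anti-CD4 replicate 3 fell among them. C1qc, measured with 10 spots whose SD within an array was 0.029 to 0.052, had 2.34, 2.28, 2.16 and 2.31 on the anti-CD4 arrays and 2.22, 2.0, 2.32 and 2.21 on the control arrays. Control replicate 2 was the lowest array for all 3 chains. The C1qa difference was 0.02 (95% confidence interval -0.15 to 0.20, limma adjusted p = 0.916). The C1qb difference was 0.09 (-0.05 to 0.24, limma adjusted p = 0.549), and the C1qc difference was 0.09 (-0.10 to 0.27, limma adjusted p = 0.684). As folds, the intervals reached from 0.898 to 1.15 for C1qa, 0.966 to 1.18 for C1qb and 0.930 to 1.21 for C1qc.

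The C1q chains were set beside the 20 microglia marker genes, all of which were tested. The mean of the list, centred on each gene, was 0.08, 0.04, -0.11 and 0.04 on the anti-CD4 arrays and 0.02, 0.10, -0.06 and -0.11 on the control arrays. The mean of the 3 chains, centred likewise, was 0.09, 0.02, -0.06 and 0.08 on the anti-CD4 arrays and 0.02, -0.16, 0.06 and -0.06 on the control arrays. On control replicate 2 the microglia list was at its highest and the C1q mean at its lowest. The summed microglia signal was 253 to 284 on the anti-CD4 arrays and 241 to 253 on the control arrays, in units of the array's 75th percentile signal. Most of this sum came from 1 Siglech probe, with mean log2 signals of 7.46 on the anti-CD4 and 7.32 on the control arrays. The list mean, which weighs the genes alike, differed by 0.03 (exact permutation p = 0.714). Of the list, the purinergic receptor P2ry12 differed by -0.14 (limma adjusted p = 0.596) and the brightest probe of the fractalkine receptor Cx3cr1 by 0.14 (limma adjusted p = 0.587). The other Cx3cr1 probes differed by 0.08 (limma adjusted p = 0.726) and -0.19 (limma adjusted p = 0.468). One probe of the macrophage adhesion receptor Adgre1 differed by 0.34 (limma adjusted p = 0.198), with all anti-CD4 values above all control values. One probe of Siglech differed by -0.55 (limma adjusted p = 0.236) and 1 of Olfml3 by -0.33 (limma adjusted p = 0.283), with all anti-CD4 values below. Other probes of these 3 genes overlapped between the groups, and those of Siglech had differences above 0. With the microglia mean as a covariate, the differences of the chains were 0.02, 0.09 and 0.09 for C1qa, C1qb and C1qc. Among 14211 genes, those most like the C1q mean over the 8 arrays were Rgsl1 (Pearson r = 0.992), Rab3b (0.961) and Rsad1 (0.955), a description of the highest of many correlations that share the same arrays.

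C3, the central component of the cascade, was measured by both of its probes on all 8 arrays, and they gave different spreads. The 10-spot probe had -1.62, -2.45, -1.82 and -2.26 on the anti-CD4 arrays and -2.44, -1.89, -2.29 and -2.48 on the control arrays. Anti-CD4 replicates 1 and 3 and control replicate 2 were the high arrays. The within-group SD was 0.33, and its spots within 1 array had an SD of 0.11 to 0.16. The single-spot probe had -1.07, -1.09, -1.12 and -1.23 on the anti-CD4 arrays and -1.26, -1.33, -1.16 and -1.17 on the control arrays. Here 3 of the 4 anti-CD4 arrays lay above all control arrays and anti-CD4 replicate 4 lay among them. Control replicate 2 was the lowest array for this probe and the third highest for the other. The differences were 0.24 (-0.22 to 0.70, limma adjusted p = 0.635) for the 10-spot probe and 0.10 (-0.06 to 0.26, limma adjusted p = 0.564) for the single-spot probe. The genes most like the 10-spot probe were Ppp1r37 (r = 0.946), Tmem212 (0.943) and Mal (0.942), and those most like the single-spot probe were Tada2a (0.980), Sf3b2 (0.969) and Ppp4r1 (0.961), each over 8 arrays.

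C4b, the gene of complement C4, which C1s cleaves, had 2.78, 2.36, 3.01 and 2.59 on the anti-CD4 arrays and 2.31, 2.65, 2.54 and 2.32 on the control arrays. Anti-CD4 replicates 1 and 3 were higher than all control arrays, and anti-CD4 replicate 2 lay between the control values. The difference was 0.23 (-0.10 to 0.56, limma adjusted p = 0.521), the smallest adjusted p among the main 9 complement genes. It was 0.12 without anti-CD4 replicate 3 and 0.34 without anti-CD4 replicate 2. The mean of 12 astrocyte genes, all tested, was 0.07, -0.06, 0.03 and 0.04 on the anti-CD4 arrays and -0.07, 0.02, 0.04 and -0.07 on the control arrays. The 3 arrays lowest in C4b, anti-CD4 replicate 2 and control replicates 1 and 4, were also the 3 lowest in the astrocyte mean. The array highest in C4b, anti-CD4 replicate 3, had 0.03 in the astrocyte mean, below the 0.07 of anti-CD4 replicate 1. Oligodendrocyte lineage cells, the other source of C4b given above, had no marker list here. The summed astrocyte signal, most of it from the brightest gene of the list, was 543 to 589 on the anti-CD4 arrays and 482 to 582 on the control arrays. Its part in the C4b values was not tested. Gfap, the intermediate filament of astrocytes, differed by -0.25 for its brightest probe and did not pass the threshold (limma adjusted p = 0.391). The genes most like C4b were H1f2 (r = 0.985), Ndrg2 (0.980) and Urod (0.972) over 8 arrays. Ndrg2 is expressed mainly by astrocytes in the brain. These genes were picked for likeness to C4b on the same arrays, and the cell source of C4b was not tested.

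Serping1, the inhibitor of C1r and C1s, gave parallel values with its 2 probes. The contiguous probe had 0.63, 0.32, 0.38 and 0.76 on the anti-CD4 arrays and 0.80, 0.98, 0.05 and 0.22 on the control arrays. The split probe had -0.51, -0.86, -0.56 and -0.33 on the anti-CD4 arrays and -0.43, -0.27, -1.19 and -0.96 on the control arrays. The control arrays held both the highest value, replicate 2, and the 2 lowest, replicates 3 and 4, so the anti-CD4 values lay within the control range for both probes. The difference was 0.01 (-0.47 to 0.50, limma adjusted p = 0.986) for the contiguous probe and 0.15 (-0.33 to 0.63, limma adjusted p = 0.788) for the split probe. The mean of 10 meningeal and perivascular fibroblast genes, all well above background on 8 of 8 arrays, was 0.05, -0.02, -0.05 and 0.22 on the anti-CD4 arrays and 0.32, 0.12, -0.54 and -0.10 on the control arrays. The 2 lowest arrays of this list, control replicates 3 and 4, were the 2 lowest in both Serping1 probes. They were also the 2 lowest in the mean of the blood leukocyte marker list, at -0.51 and -0.38. Control replicate 2, highest in both Serping1 probes, had 0.12 in the fibroblast mean, below control replicate 1 and anti-CD4 replicate 4. The summed fibroblast signal was 30.3 to 39.5 on the anti-CD4 arrays and 31.0 to 39.8 on the control arrays, and its part in the Serping1 values was not tested. Snx17 was among the 3 genes most like both probes (r = 0.990 with the split probe and 0.954 with the contiguous one, 8 arrays). The others were Snai1 (0.952) and Itih2 (0.936) for the split probe and Lipe (0.956) and Ecm1 (0.951) for the contiguous probe.

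The anaphylatoxin receptors were near or below the detection limit. C3ar1, at chr6:122798222-122798281 on the minus strand, was well above background on 5 of 8 arrays, 3 anti-CD4 and 2 control. Its signal was -4.09, -3.70, -4.73 and -3.69 on the anti-CD4 arrays and -4.32, -3.88, -4.07 and -4.50 on the control arrays. The 3 arrays that missed the background criterion, anti-CD4 replicate 3 and control replicates 1 and 4, were its 3 lowest. The difference was 0.14 (-0.41 to 0.69, limma adjusted p = 0.826). The genes most like it were Gna11 (r = 0.996), Rps6ka3 (0.986) and Dnajc30 (0.983) over 8 arrays. C5ar1, at chr7:16832243-16832302 on the minus strand, was well above background on 0 of 8 arrays and was not tested. Its values were -5.30, -6.81, -6.71 and -6.43 on the anti-CD4 arrays and -6.74, -6.67, -6.63 and -6.39 on the control arrays, and give no order.

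Cd59a, the inhibitor of the membrane attack complex, varied more between arrays than any other tested complement gene here. Its signal was -1.08, 0.13, 0.77 and 0.05 on the anti-CD4 arrays and 0.39, -1.10, -0.87 and 0.40 on the control arrays. Anti-CD4 replicate 1 and control replicates 2 and 3 were low, and the other 5 arrays, from both groups, were high. The groups overlapped, with a difference of 0.26 (-0.80 to 1.33, limma adjusted p = 0.835). The within-group SD was 0.78, larger than that of 98.9% of all tested probes, whose median was 0.14. Serping1 and C3ar1 had within-group SDs of 0.34 to 0.40, and the lowest among the tested probes of the main 9 complement genes was 0.06, for C1qb.

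The 3 low arrays of Cd59a were also the 3 lowest in Ttr, the transthyretin gene that choroid plexus epithelium expresses at very high levels. The Ttr signal was 1.22, 7.60, 8.48 and 7.75 on the anti-CD4 arrays and 8.16, 2.72, -0.46 and 8.26 on the control arrays. The mean of 12 choroid plexus genes, all tested, was -2.64, 1.10, 2.40 and 1.18 on the anti-CD4 arrays and 1.93, -2.46, -3.40 and 1.89 on the control arrays, so these 3 arrays stood apart in the whole list. Its summed signal was 28.2 to 615 on the anti-CD4 arrays and 23.0 to 492 on the control arrays, and the tested probes of Kcne2, Slc4a5 and Cldn2 were well above background on 5 of the 8 arrays. With Ttr as a covariate the Cd59a difference was -0.03 with a standard error of 0.20, against 0.26 with a standard error of 0.47 without it. The genes most like Cd59a were Ltc4s (r = 0.996), Prr12 (0.991) and Marveld3 (0.991) over 8 arrays that lie in separate clusters, so the coefficients describe that separation. Marveld3, a tight junction protein of epithelia, had -4.87, -3.49, -2.74 and -3.61 on the anti-CD4 arrays and -3.37, -5.09, -5.01 and -3.23 on the control arrays. It was low on the same 3 arrays, which its choice for likeness to Cd59a implies, so this adds nothing separate.

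**Figure D2:**
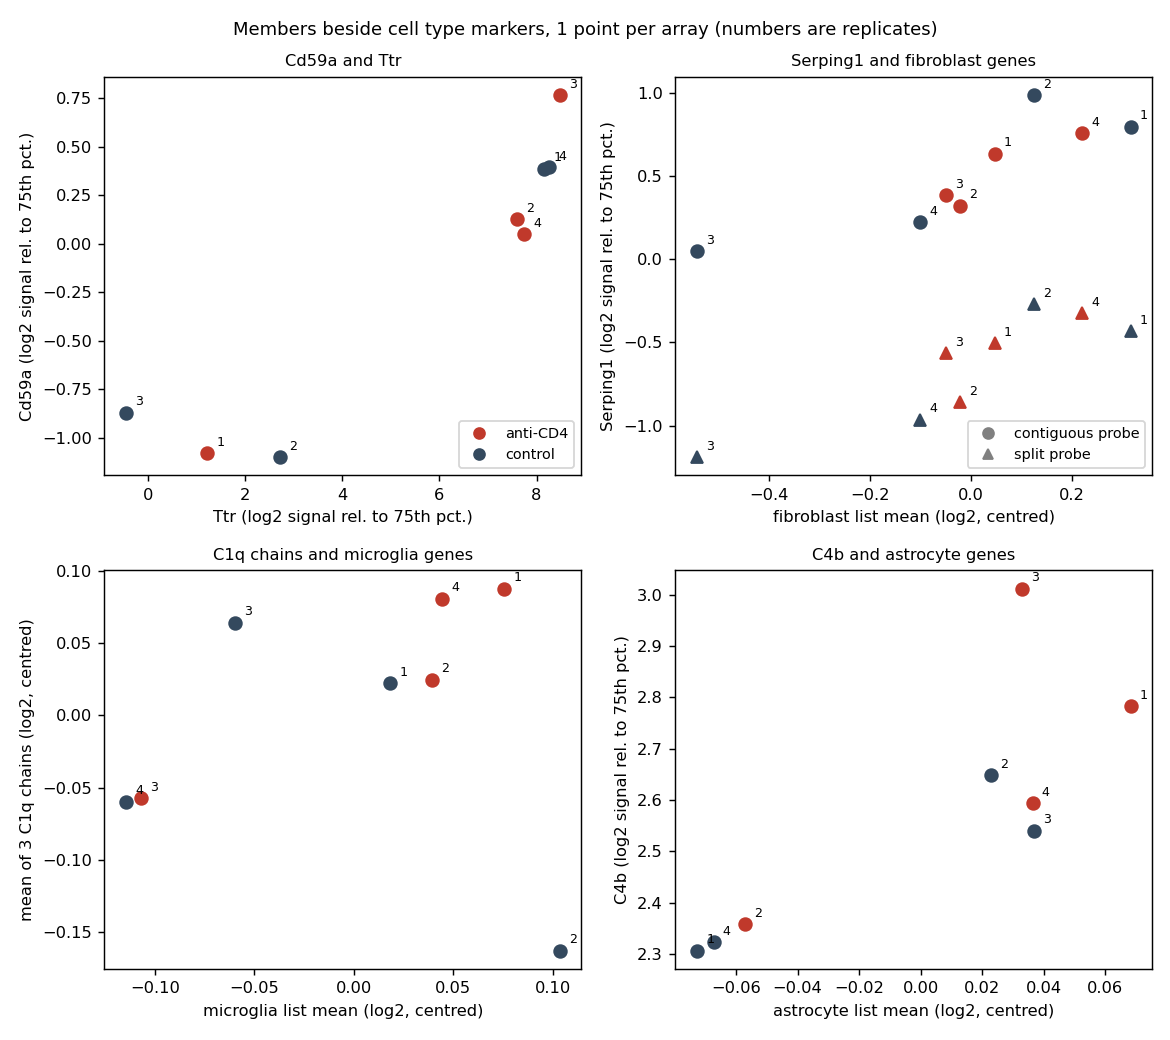
Each point is 1 array, numbered by replicate, with anti-CD4 arrays in red and control arrays in dark blue. The panels plot Cd59a against Ttr, both Serping1 probes against the fibroblast list mean, the C1q mean against the microglia list mean and C4b against the astrocyte list mean, all on log2 scales. Arrays of both groups lie among the low and the high Cd59a values.

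**Figure D3:**
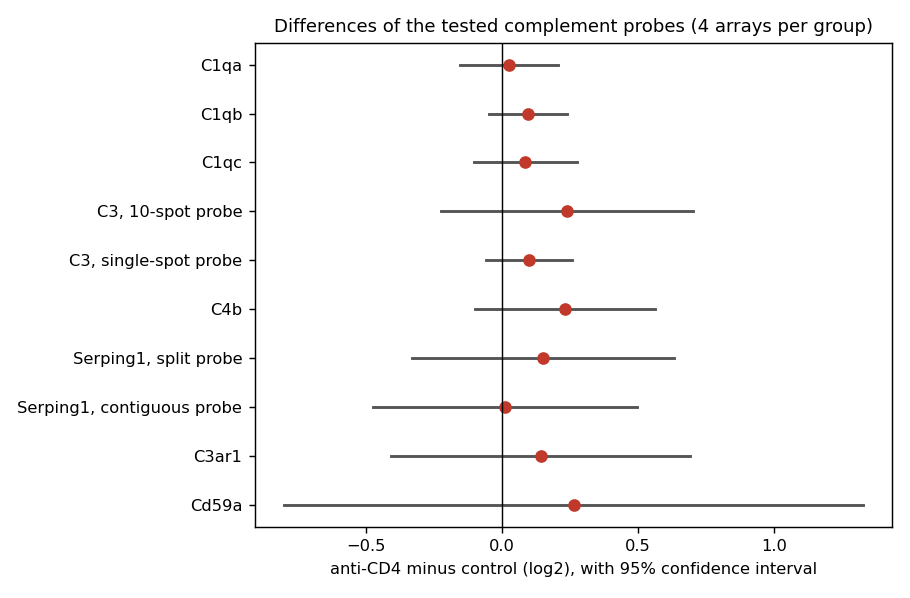
Points are the log2 differences of the 10 tested probes, anti-CD4 minus control, and lines their 95% confidence intervals from limma with 4 arrays per group. Every interval includes 0, and the widest is that of Cd59a, from -0.80 to 1.33.

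The other genes of the pathway were 53, with 74 probes, of which 43 probes of 32 genes were tested. Of these, 25 were higher and 18 lower on the anti-CD4 arrays, and the median difference was 0.04, against 0.0046 over all tested probes. At an adjusted p under 0.05 limma called 0 of 43. At an unadjusted p under 0.05, 2 were higher and 2 lower, out of 43, and in 2 all anti-CD4 values exceeded all control values. In 0 of 43 all anti-CD4 values lay below all control values. Over all tested probes the matching shares were 5.98% higher and 6.99% lower at an unadjusted p, and 3.77% above and 4.43% below without overlap, and 43 probes are few for reading a difference from them.

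The 2 separated probes belonged to Hc, the gene of mouse C5, and Sez6, a neuronal membrane protein with sushi domains like those of complement regulators. Hc had -1.34, -1.91, -2.03 and -2.12 on the anti-CD4 arrays and -2.15, -2.34, -2.42 and -2.82 on the control arrays. All anti-CD4 values were above all control values, the nearest pair being -2.12 and -2.15. The difference was 0.58, with an adjusted p of 0.290 in limma. One Sez6 probe had 1.98, 1.89, 2.06 and 1.89 on the anti-CD4 arrays and 1.57, 1.45, 1.70 and 1.81 on the control arrays, a difference of 0.32 (limma adjusted p = 0.250). The other Sez6 probe, with a difference of 0.11 (limma adjusted p = 0.589), overlapped between the groups.

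Of the classical pathway, C2, the partner of C4 in the C3-cleaving enzyme, differed by 0.35 (limma adjusted p = 0.495) and C1s1, a C1s protease, by -0.16 (limma adjusted p = 0.674). In the lectin pathway, 1 Masp2 probe, for the protease that cleaves C4 and C2, differed by -0.36 (limma adjusted p = 0.326) and the collectin Colec12 by -0.20 (limma adjusted p = 0.703). Cfp, the properdin that stabilises the alternative pathway enzyme and the 1 tested gene of that pathway, differed by -0.33 (limma adjusted p = 0.414). For the terminal pathway, 1 C8g probe differed by -0.15 (limma adjusted p = 0.650) and the other by 0.11 (limma adjusted p = 0.664).

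Among soluble regulators, C4bp, a cofactor for the breakdown of C4b, had -3.19, -3.57, -3.40 and -3.69 on the anti-CD4 arrays and -3.38, -2.03, -2.67 and -2.99 on the control arrays. Control replicate 1 lay among the anti-CD4 values and the other 3 control arrays were above them. Its difference was -0.69 (limma adjusted p = 0.331). C1qbp, a mainly mitochondrial protein that can bind C1q, differed by -0.17 (limma adjusted p = 0.407). Of the membrane regulators, Cr1l, the rodent regulator also called Crry, differed by 0.20 (limma adjusted p = 0.428). The 7 tested receptor probes had differences of 0.04 to 0.23, with Cd93, a surface protein of endothelial and myeloid cells, at 0.23 (limma adjusted p = 0.398) and Cr2, a receptor for C3 fragments, at 0.11 (limma adjusted p = 0.733).

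**Figure D4:**
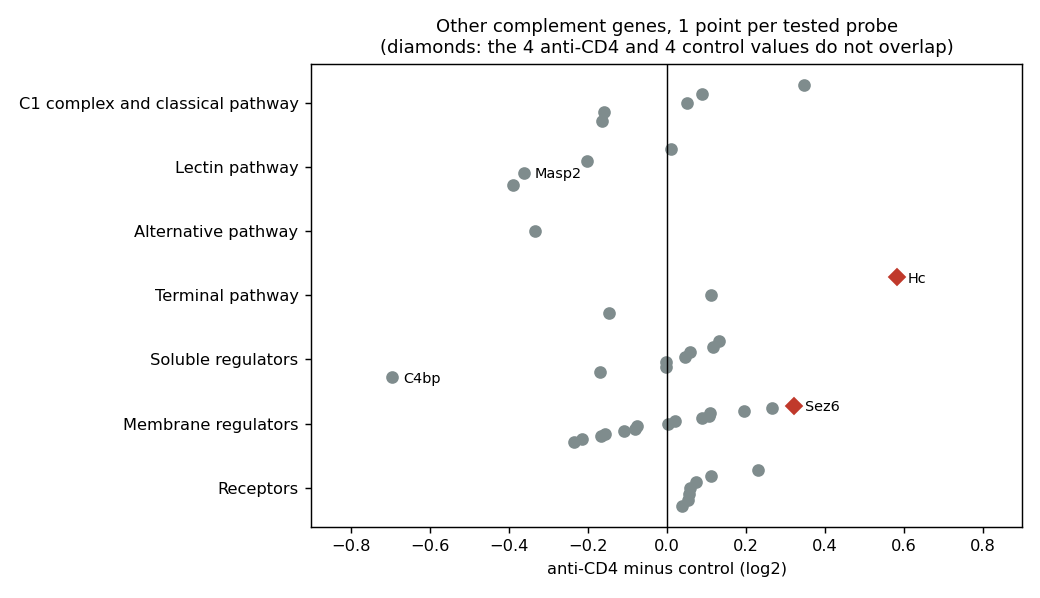
Points are the 43 tested probes of the other complement genes, by sub-list, with the log2 difference, anti-CD4 minus control, on the x axis. Red diamonds mark Hc at 0.58 and 1 Sez6 probe at 0.32, the 2 probes whose groups do not overlap, and C4bp at -0.69 is the lowest.

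Marker lists of 13 cell types and states were compared over the 70 assignments of arrays to groups, whose smallest two-sided exact permutation p is 0.0286. Adjusted over 13 lists, a single list at that smallest p stands at 0.371, so the design could not pass it, and the smallest adjusted exact permutation p was 0.371. The lists were chosen with earlier results of these data known, so the p-values of the lists are descriptive. The red blood cell list differed by 0.53 (exact permutation p = 0.0286), with summed signals of 116 to 136 on the anti-CD4 arrays and 74.9 to 111 on the control arrays. Apart from Alas2, its tested genes were globin chains. The endothelial list differed by 0.17 (exact permutation p = 0.0571), with summed signals of 42.5 to 49.0 on the anti-CD4 arrays and 39.8 to 44.6 on the control arrays. The differences of the other lists were 0.03 for microglia, 0.04 for border macrophages, 0.04 for astrocytes, 0.13 for reactive astrocytes, 1.02 for choroid plexus (2.07 when anti-CD4 replicate 1 was left out, 0.059 when control replicate 3 was), 0.10 for fibroblasts, -0.0045 for mural cells, 0.44 for blood leukocytes (0.23 without anti-CD4 replicate 4), 0.09 for T lymphocytes, -0.20 for hippocampal neurons and 0.20 for the interferon response. Only 3 of the 9 T lymphocyte genes and 4 of the 10 blood leukocyte genes were tested, and the other T lymphocyte genes missed the background criterion. Of the reactive astrocyte list, Lcn2, which encodes an iron-carrier-binding acute-phase protein, had -2.20, -2.15, -2.36 and -2.26 on the anti-CD4 arrays and -2.82, -3.0, -2.84 and -2.90 on the control arrays. Its groups did not overlap, and its difference of 0.65 had the smallest adjusted p of all tested probes (limma adjusted p = 0.148). Lcn2 does not stand for its list. Of the 10 tested reactive astrocyte genes, 8 had a difference above 0 and 2 had one below 0. The median difference of these genes was 0.11. Of the red blood cell list, Hbb-bt differed by 0.41, Alas2 by 0.63 and Hba-a1 by 0.49, each with a limma adjusted p of 0.173. Of the endothelial list, 1 probe of Flt1 differed by 0.33 (limma adjusted p = 0.247), Esam by 0.24 (limma adjusted p = 0.249) and Slc2a1 by 0.17 (limma adjusted p = 0.289). The parts of these lists in the values of the complement genes were not tested. The microglia and Ttr covariates were alternative fits on the same arrays. With the microglia mean as a covariate, the C3ar1 difference was 0.054, against 0.14 without it. The Cd59a difference was 0.41 with that covariate, against 0.26 without it.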

How the data were processed

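Total RNA of 8 hippocampal samples was read on 1-colour arrays of design 028005. The deposited spot files hold intensity values that Feature Extraction 10.7.3.1 had background-subtracted within each array, with positions on mm9, per the file headers. The authors also deposited a table of log2 values for the same probes, and the submitters' processing notes name limma, with other steps not given in the sources used here. Its columns' scale follows log2 of the spot signals for bright probes, and its values for dim probes are higher than log2 of the processed signal. For C5ar1 on anti-CD4 replicate 2 it held 7.446, where the processed signal before the log2 step was 6.79. The authors' table served as an alternative.

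Control spots and outlier-flagged spots were left out and spots of a probe averaged. The processed signal was put on a log2 scale and each array's 75th percentile subtracted. Probes well above background on at least 4 of 8 arrays (29406) entered 1 limma fit (version 3.58.1, R 4.3.3; lmFit, eBayes, two-sided), and p-values were Benjamini-Hochberg adjusted over all of them, with a threshold of 0.05. The fit was tested on simulated data. Symbols came from a table of RefSeq genes (GRCm38.p6): 27509 probes matched on accession, 3549 on symbol and 404 on synonym, and 1808 kept the file's name. The other 22411 probes were given no symbol.

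The members and gene lists were chosen with earlier results of these data known. Named are all members; of the other complement genes, the tested genes with the 2 smallest p per sub-list and those whose groups do not overlap; of the marker lists, up to 3 genes with the smallest p (printed for the microglia, red blood cell and endothelial lists, and 1 gene each for the astrocyte, reactive astrocyte and choroid plexus lists), plus Ttr, Cd4, Cx3cr1, P2ry12 and Gfap; and the 3 genes most like each member. Kcne2 and Cldn2 were named after their values were seen. Alternatives were 4 other scalings or corrections, the authors' table, 2 filters, 2 ways of joining probes, a replicate block, eBayes with trend, array weights, 2 covariates, a threshold of 0.1 and leaving out each array. Replicate numbers of the titles equal slide columns. Deviations from the group means of same-numbered arrays correlated at -0.44, -0.28, -0.31 and 0.28, so the numbers were not taken to pair samples.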

Additional observations from a re-analysis of the deposited data

Results flagged for a closer look

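Of 132 groups of 4 arrays examined, 5 (3.79%) held an array far from the others, and chance gives about 1 in 20. None was a complement gene of the main 9. The reactive astrocyte list mean was 0.2361 on control replicate 2, against -0.18 to -0.15 on the other control arrays. The interferon response list mean was -0.4341 on control replicate 3, against -0.02 to 0.05 on the others. Colec11, a sugar-binding lectin, was -2.128 on anti-CD4 replicate 2, against -2.24 to -2.22. Cr1l was 1.329 on control replicate 2, against 1.06 to 1.10. One Sez6 probe was 2.403 on control replicate 2, against 2.66 to 2.70.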

How the results depend on the processing

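No complement gene passed an adjusted p of 0.05 under any alternative that was run. Over all probes 0 passed, against 2 with the authors' table, 2 with eBayes using trend and robust, 1 with Ttr as a covariate, and 0 to 2 with an array left out. The count at an unadjusted p was 3813 and 2721 to 4613 with an array left out. Median centring gave 2498 higher and 1221 lower, against 1758 and 2055. Other complement genes at an unadjusted p numbered 4, against 7 with the authors' table, 10 without a filter, 8 with eBayes using trend and robust, 8 with the microglia covariate, and 2 to 6 with an array left out. With the replicate block, where numbers are only shared, 0 probes passed the adjusted threshold, as without it, and at an unadjusted p 1199 were higher and 1564 lower, with 5 among the other complement genes. Some signs turned: C1qa to -0.0035 with normexp and -0.012 with the authors' table, Serping1 (contiguous) to -0.066 with the microglia covariate, C3ar1 to -0.059 with the authors' table, Cd59a to -0.034 with Ttr, and the mural list to 0.019 with normexp, 0.016 with quantile, 0.029 with median centring and 0.0088 with the authors' table. With an array left out, differences were -0.025 to 0.065 for C1qa, -0.0081 to 0.30 and -0.14 to 0.17 for Serping1 (split, contiguous), -0.0048 to 0.61 for Cd59a, 0.024 to 0.13 for C1qc, 0.10 to 0.38 for C3 (10-spot), 0.12 to 0.34 for C4b, 0.022 to 0.37 for C3ar1, 0.059 to 2.07 for choroid plexus, 0.23 to 0.58 for blood leukocytes, -0.0077 to 0.066 for microglia, -0.042 to 0.12 for border macrophages, -0.064 to 0.22 for fibroblasts and -0.11 to 0.089 for mural cells. The sign turned without control replicate 2 for C1qa and Cd59a, without anti-CD4 replicate 3 for Cd59a (-0.0035), without control replicate 3 for both Serping1 probes, and for the contiguous one also without anti-CD4 replicate 1 or 4 or control replicate 4. The causes were not tested. C3ar1 has no value with the filter on all 8 arrays.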
